A study of Mus musculus with 2 samples.

Results

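Nuclear pore complexes are the channels through which proteins and RNAs pass the nuclear envelope, and 32 genes of this machinery were followed in whole mouse embryos: 29 genes of pore proteins (nucleoporins) and 3 genes of the Ran cycle that gives transport its direction. The genes were chosen by symbol, and a locus was taken as theirs when its Ensembl gene identifiers included the gene's own. All 32 had a locus among 34624 in the tables. For Nup62 the gene identifier was absent and the match was made through 1 of its 5 annotated transcript identifiers. Where genes overlap, the authors merged them into a joined locus. For 25 genes the locus held that gene alone, while 7 lay in joined loci whose value cannot be given to a single gene.

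The embryos came from crosses of the CBA/Ca and C57Bl/10 strains, were taken at embryonic day 10.5 and had received no treatment. Total RNA of the whole body was sequenced in 2 replicates of this single group. Neither the number of embryos behind a replicate nor the litters are given by the labels, so the spread between them may be technical. With a single group of 2 libraries no test between conditions exists, and the values below are levels with their replicate spread.

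The summed counts were 18318181 in replicate 1 and 117522171 in replicate 2. All 11 markers of embryonic tissues (blood, nervous system, muscle, mesenchyme, endothelium, epithelium and liver) reached 1 RPKM in both replicates. RPKM are reads scaled to transcript length and library size. Of 4 markers of maternal decidua, Cryab and Prl8a2 reached that level in both, and the list summed to 21.1 RPKM in replicate 1 and 17.8 RPKM in replicate 2. None of 5 trophoblast markers reached it in both, with sums of 2.40 and 1.82 RPKM. Prl3b1 was the highest of them, at 1.90 RPKM (19 reads) in replicate 1 and 0.970 RPKM (55 reads) in replicate 2. Tpbpa and Psg21 had no reads. A count of 0 allows up to 0.164 CPM (counts scaled to the sum of their library) in replicate 1 and 0.0255 CPM in replicate 2, for counting error only. Cryab made up most of the decidual sum, at 18.4 RPKM in replicate 1 and 10.9 RPKM in replicate 2. Whether its RNA came from decidua or from the embryo cannot be told from these levels. Igfbp1 had 1.24 and 0.567 RPKM and Prl3c1 0.213 and 0.0209 RPKM. Prl8a2 went the other way, at 1.23 RPKM in replicate 1 and 6.38 RPKM in replicate 2. Among the embryonic markers, the globins Hbb-y (1746 and 6474 RPKM) and Hba-x (1284 and 3219 RPKM) were higher in replicate 2, and the liver and yolk sac marker Afp (196 and 82.0 RPKM) was lower. The part of decidual RNA and of tissue makeup in the differences between replicates was not tested.

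The pore is built from several copies of many different proteins arranged in rings. The Y complex forms the outer rings and also sits at kinetochores in mitosis. The inner ring lines the membrane, transmembrane proteins anchor it, and nucleoporins rich in phenylalanine-glycine repeats fill the channel. Filaments face the cytoplasm and a basket faces the nucleoplasm. Ran, a small GTPase, is loaded with GTP by Rcc1 on chromatin and hydrolyses it at the cytoplasmic face with the help of Rangap1, which makes importins release cargo inside the nucleus and exportins release it outside.

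Most loci of the machinery stood above the median detected locus. All 32 member loci, 25 of them of 1 gene and 7 joined, reached 1 RPKM in both replicates, where 49.4% of all loci and 65.1% of protein-coding loci did. At 10 RPKM or more in both replicates there were 31 of 32 members, against 29% of all loci and 42.2% of protein-coding loci. The exception was Pom121. The median member stood at 69.9 RPKM in replicate 1 and 62.0 RPKM in replicate 2, against 21.6 and 15.7 RPKM for the 17090 loci of 1 RPKM or more. The 12557 protein-coding loci among these had medians of 26.3 and 19.1 RPKM. By mean RPKM 20 of 32 members lay above the 75th percentile of the 17090 loci, 9 above the 90th and 2, Pom121 and Nupl2, under the 50th. A whole embryo mixes many cell types, and fewer cells of a type cannot be told apart from less RNA per cell.

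**Figure D1:**
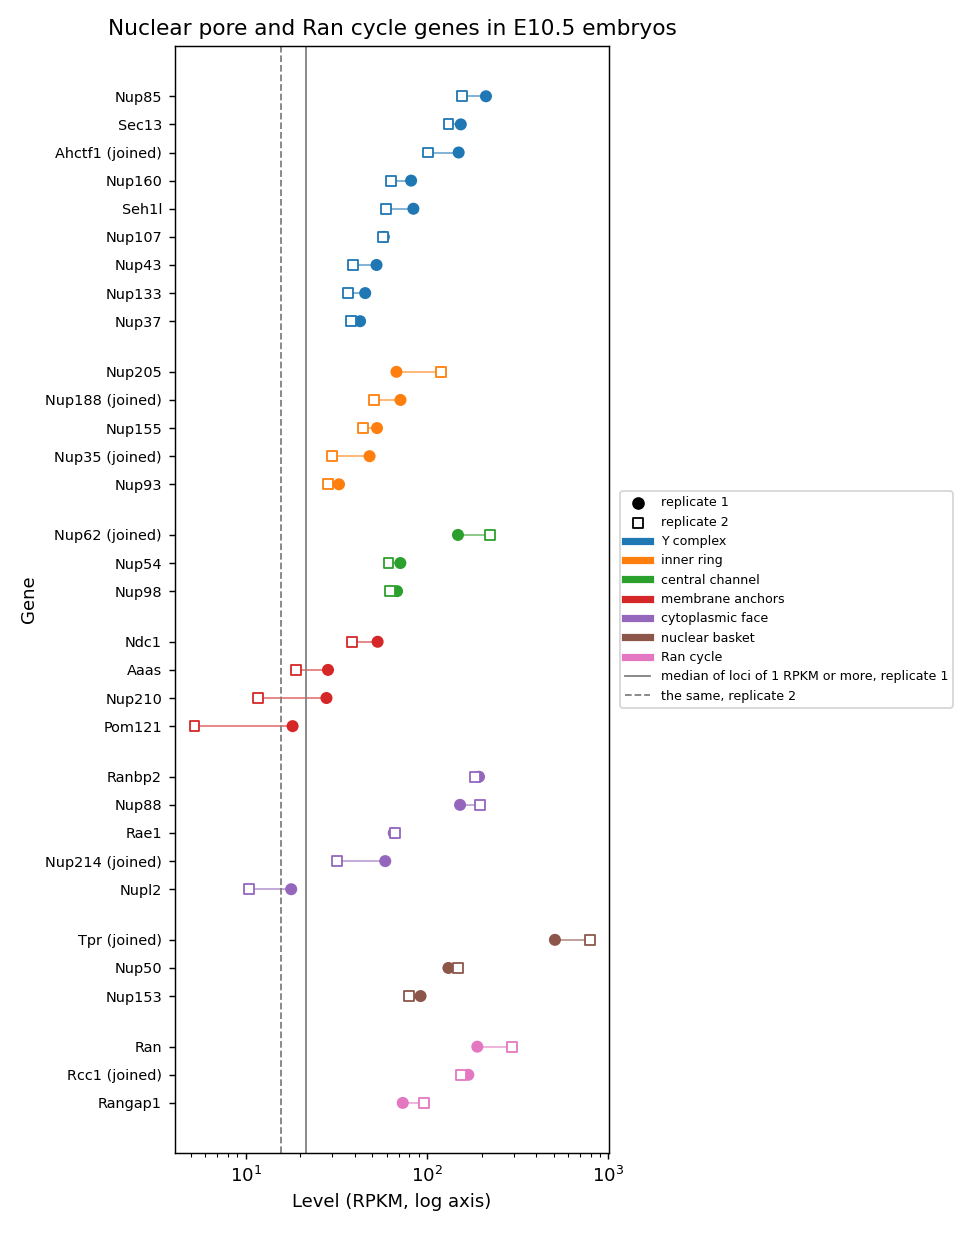
Level of each of the 32 genes in RPKM (horizontal log axis), filled circles for replicate 1 and open squares for replicate 2, grouped and coloured by place in the pore; grey lines mark the median of loci of 1 RPKM or more in each replicate. Aaas, Nup210 and Pom121 of the membrane anchor group and the cytoplasmic Nupl2 lie nearest the grey lines or left of them, and Tpr lies farthest right.

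The 9 genes of the Y complex had a median of 81.8 RPKM in replicate 1 and 59.6 RPKM in replicate 2, and all 9 reached 10 RPKM in both. Nup85, a scaffold arm subunit, was highest at 212 and 157 RPKM in replicates 1 and 2. Sec13, a beta-propeller protein that also builds the COPII coat of secretory vesicles, followed at 154 and 131 RPKM. On RPKM both stood above every other Y complex gene with a locus of its own in each replicate. Ahctf1 encodes ELYS, which seeds pore assembly on chromatin after mitosis, and its locus, joined with Gm10518, had 150 and 101 RPKM.

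The other subunits of the Y stood lower on RPKM. Nup160 had 81.8 and 63.6 RPKM, Seh1l, another beta-propeller, 84.2 and 59.6 RPKM, and Nup107, a stem subunit, 57.8 and 57.3 RPKM. Nup107 was the member of the complex that differed least between the replicates. Nup43 had 52.7 and 39.0 RPKM, and the stem subunit Nup133 had 45.7 and 36.7 RPKM. Nup37 closed the list at 42.8 and 38.1 RPKM. The highest and lowest mean RPKM of the complex lay 4.55-fold apart. On RPKM 10 of the 28 pairs of its single-gene members lay apart by more than the replicate spread (defined below), all of them pairs with Nup85 or Sec13. The lead of Nup85 depended on the length used. Per kilobase of coding sequence (described below) its mean was 55.8 CPM, under Sec13 at 77.0 and Seh1l at 57.8.

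Inner ring genes had a median of 53.1 RPKM in replicate 1 and 44.2 RPKM in replicate 2 over 5 genes. This was under the Y complex on RPKM and on coding length (41.0 and 30.2, against 47.2 and 39.2 CPM per kilobase), but on CPM, which holds no length, the inner ring was above it (142 against 104, means of the replicate medians). Nup155, which lies against the membrane, had 53.1 and 44.2 RPKM and supplied the median in both. Nup93, the central linker of the ring, was the lowest at 32.8 and 28.6 RPKM. Of the large scaffold pair, Nup205 had 67.9 and 119.8 RPKM, while Nup188, joined with Lrrc8a, Phyhd1 and 2 others, had 71.5 and 51.2 RPKM. Nup35, a membrane-binding subunit joined with the phosphatase gene Dusp19, had 48.3 and 30.01 RPKM. Nup205 was the sole inner ring gene that was higher in replicate 2 on the RPKM scale, and it was not on the count scale, as described with the replicates below.

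Among the channel nucleoporins, Nup54 and Nup98 were close to each other. Nup54 had 71.3 and 61.4 RPKM, and Nup98, whose precursor is cleaved into Nup98 and Nup96, had 68.4 and 62.6 RPKM. Nup62, their partner in the channel, sits in a locus joined with the transcription factor gene Atf5 and the amino acid oxidase gene Il4i1, and that locus had 148 and 222 RPKM. Its higher value thus cannot be given to Nup62.

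Membrane anchors were the lowest of the 7 groups, with a median of 28.2 RPKM in replicate 1 and 15.3 RPKM in replicate 2. Ndc1, which is needed to insert new pores, was highest at 53.5 and 38.6 RPKM. Aaas was listed with this group, though its product ALADIN is held at the pore by Ndc1. It is mutated in human triple A syndrome and had 28.5 and 19.0 RPKM. Nup210, a glycoprotein whose levels vary between cell types, had 27.9 and 11.7 RPKM. Pom121, which acts early in pore assembly between mitoses, had 18.2 and 5.23 RPKM, with 898 and 1469 reads. All 4 were lower in replicate 2, as were 24 of the 32 members and 13381 of the 17090 loci of 1 RPKM or more.

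The cytoplasmic face held both high and low members. Ranbp2, the giant filament protein that binds Ran and attaches SUMO to proteins, had 194 and 183 RPKM, from 24666 and 132517 reads. Nup88, a filament scaffold, had 152 and 196 RPKM. Rae1, an mRNA export factor that binds Nup98, had 65.6 and 66.3 RPKM, nearly the same in both libraries on this scale. Its CPM were 41.7 and 34.5. Nup214, the partner of Nup88, had 58.9 and 31.98 RPKM in a locus joined with Gm13609 and Gm16534. Nupl2, also called Nup42, which works with Gle1 at the last step of mRNA export, was lowest at 17.9 and 10.5 RPKM. The 2 extremes, Ranbp2 and Nupl2, differed by 3.69 ± 0.45 on the log2(RPKM + 1) scale (SD, n = 2), beyond the replicate spread.

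Nuclear basket genes were high, with a median of 131 RPKM in replicate 1 and 148 RPKM in replicate 2. Tpr, the coiled-coil protein that forms the basket, had the highest value of any member at 508 and 789 RPKM, in a locus joined with Odr4. Nup50, a cofactor of importins that moves on and off the pore, had 131 and 148 RPKM. Nup153, which tethers the basket, had 92.2 and 79.9 RPKM.

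Ran had 190 RPKM in replicate 1 and 296 RPKM in replicate 2, the highest mean of any gene with a locus of its own. Processed copies of Ran exist in the mouse genome, and how reads were shared with them is not given in the sources used here. Rcc1, its exchange factor, had 169 and 154 RPKM in a locus joined with Snhg3 and the small nucleolar RNAs Snora73a and Snora73b. Rangap1, its GTPase-activating protein, had 73.6 and 96.2 RPKM. Ran and Rangap1 were both higher in replicate 2, and on CPM as well, with log2 ratios of 0.46 and 0.22.

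The 25 genes with a locus of their own were ranked by mean RPKM, and a pair was called apart when both replicates gave the same sign and the mean difference of log2(RPKM + 1) exceeded 2 SD of the replicate log2 ratio of loci at that level. On RPKM none of the 24 neighbouring pairs was apart, whereas 149 of all 300 pairs were. Of the 24 neighbouring pairs in the order of each other scale, 2 were apart on CPM and 1 on CPM per kilobase of coding sequence. Ran, Ranbp2, Nup85, Nup88, Sec13 and Nup50 led the order, and Nup93, Aaas, Nup210, Nupl2 and Pom121 closed it. Pom121 was apart from 22 of the 24 others, all but Nupl2 and Nup210, and Nupl2 from 21. The limit was 2.06 at the top level and between 0.91 and 1.29 lower down, which made Ran apart from 10 genes and Ranbp2 from 16. Across the 25 genes, Spearman's rho between the replicates was 0.945, as a description over genes that share both libraries.

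The length used for RPKM bears on this order. Coding sequence lengths from GENCODE M21 gave a second scale, CPM per kilobase of the longest coding sequence, with 1 length for both replicates. Its counts are those of the whole locus, so any reads outside the coding sequence, or from a joined gene, raise the value. On the coding scale Ran (163 and 225), Ranbp2 (147 and 123) and Nup50 (115 and 115) led the genes with a locus of their own. Nupl2 (8.36 and 4.69) and Nup210 (8.45 and 3.42) were the lowest, and Pom121 had 13.6 and 3.47. The joined Tpr locus had 133 and 149 on this scale, beside Ranbp2 rather than far above it. Nup85 moved to place 10 of 25, with 66.2 and 45.4, and Nup160 to place 20, while Ndc1 moved up to place 6 with 89.0 and 53.8. Of the 149 pairs apart on RPKM, 124 were also apart in the same direction on the coding scale, which had 165 pairs apart in all. Of the 300 pairs, 43 stood in the opposite order on the 2 scales. Between the 2 scales Spearman's rho over the 25 genes was 0.862.

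**Figure D2:**
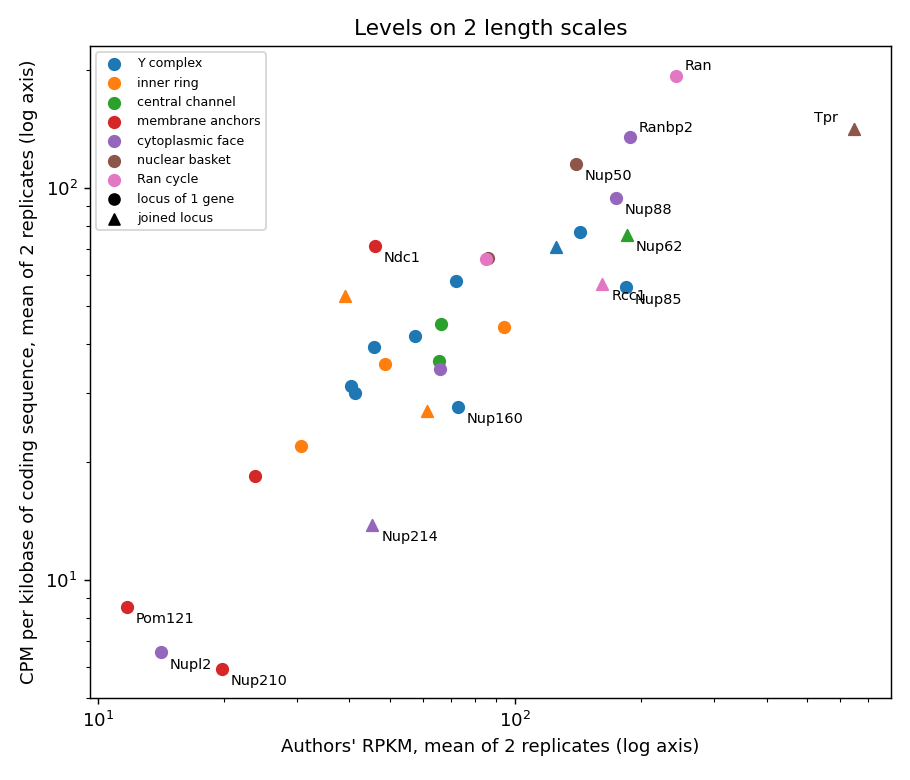
Mean level of each member in the authors' RPKM (horizontal log axis) against CPM per kilobase of coding sequence (vertical log axis), coloured by place in the pore, with circles for loci of 1 gene and triangles for joined loci. Ran and Ranbp2 are high and Pom121, Nupl2 and Nup210 low on both axes, while Tpr, Nup85 and Nup160 lie to the right of the others at their height and Ndc1 to the left.

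On the coding scale the Y complex was more even, with highest and lowest means 2.79-fold apart against 4.55-fold on RPKM. The membrane anchors were less even, 12.02-fold against 3.93-fold, since Ndc1 stood high and Nup210 low. The nuclear basket had the highest median of the 7 groups, 115 in both replicates, against 18.4 and 8.58 for the membrane anchors.

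The promoters of the 2 highest and 2 lowest genes with a locus of their own and a RefSeq promoter entry are shown, because these genes mark the ends of the order; they were chosen after the levels were seen. Each is the 250 bases before the annotated start, from RefSeq on GRCm38.p6, 5′ to 3′ on the gene's strand. Capitals mark matches, on either strand, to 6 short motifs that are spelled out after the sequences. Ran lies at chr5:129019906-129020155 (plus strand), Ranbp2 at chr10:58446602-58446851 (plus strand), Nupl2 at chr5:24164713-24164962 (plus strand) and Pom121 at chr5:135394547-135394796 (minus strand).
Ran: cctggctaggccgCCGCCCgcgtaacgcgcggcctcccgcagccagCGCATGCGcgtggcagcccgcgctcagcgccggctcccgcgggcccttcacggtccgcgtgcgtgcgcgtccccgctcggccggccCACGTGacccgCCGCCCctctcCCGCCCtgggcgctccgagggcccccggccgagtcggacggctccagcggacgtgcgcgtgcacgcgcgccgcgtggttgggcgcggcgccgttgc
Ranbp2: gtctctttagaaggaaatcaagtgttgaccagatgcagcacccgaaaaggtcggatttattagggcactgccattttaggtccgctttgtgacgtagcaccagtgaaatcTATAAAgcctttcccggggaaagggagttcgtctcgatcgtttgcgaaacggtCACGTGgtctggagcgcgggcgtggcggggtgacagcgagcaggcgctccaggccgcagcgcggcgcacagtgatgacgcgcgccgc
Nupl2: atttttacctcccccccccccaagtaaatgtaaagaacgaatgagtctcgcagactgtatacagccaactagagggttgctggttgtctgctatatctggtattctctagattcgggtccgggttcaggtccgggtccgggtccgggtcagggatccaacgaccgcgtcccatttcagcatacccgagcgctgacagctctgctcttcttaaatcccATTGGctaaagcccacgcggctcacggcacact
Pom121: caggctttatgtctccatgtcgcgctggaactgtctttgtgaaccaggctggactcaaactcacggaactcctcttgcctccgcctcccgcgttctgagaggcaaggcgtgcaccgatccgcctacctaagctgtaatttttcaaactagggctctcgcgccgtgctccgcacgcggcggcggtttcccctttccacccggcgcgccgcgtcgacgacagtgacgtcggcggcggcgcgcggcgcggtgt

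The Ran sequence is 81.6% G or C and holds the NRF1 core, an E-box and GC boxes, the Ranbp2 sequence holds a TATA box and an E-box, and the Nupl2 sequence holds a CCAAT box. No match was found in the Pom121 window, which says only that these letters are not there. Promoter entries were found for 28 of the 32 members. They were set beside all 27025 promoters of the same 250 bases and beside the 10439 of protein-coding genes in loci of 1 RPKM or more. The core of the motif of NRF1, a factor of many housekeeping promoters, was searched as GCATGCG. It was in 4 member promoters (14.3%), those of Ran, Nup62, Nup107 and Nup50, against 3.07% of all promoters and 5.51% of those in loci of 1 RPKM or more. For ETS factors the search was for CCGGAAG, which was in 6 member promoters (21.4%), against 7.05% and 13.4%. The E-box CACGTG was in 5 (17.9%), against 6.05% and 8.26%. The GC box GGGCGG was in 17 (60.7%), against 32.9% and 59.3%. A CCAAT box, searched by these letters, was in 10 (35.7%), against 34.5% and 36.9%. The TATA box TATAAA was in 2 (7.14%), those of Nup160 and Ranbp2, against 13.0% and 6.29%. None of the 6 motifs contains another. Median G and C content was 63% in the member promoters, against 52% in all promoters and 60% in those of loci of 1 RPKM or more. These counts describe the letters, with no test.

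For 30 of 32 members the replicates differed by less than 2-fold. On the log2(RPKM + 1) scale, replicate 2 over replicate 1, the median member was at -0.22 and the median of loci of 1 RPKM or more at -0.36, so the members are read against that shift. Replicate 2 was higher for 8 members and lower for 24, where it was higher for 3709 and lower for 13381 of the 17090 loci of 1 RPKM or more. With replicate 2 multiplied by 1.38, which equalises the medians of loci of 1 RPKM or more, 22 members were higher and 10 lower. This factor, the ratio of the 2 medians, is a larger shift than the median log2 ratio of -0.36. By CPM 3 members were higher and 29 lower, beside 2112 higher and 14978 lower among those loci. Past 2-fold lower in replicate 2 were 2 of 32 members, Pom121 at -1.62 and Nup210 at -1.19, where 6.92% of loci of 1 RPKM or more were. By CPM they stood at -1.89 and -1.26, and 7.68% of loci were past 2-fold lower. No member was past 2-fold higher, against 2.94% of loci on RPKM and 1.71% on CPM. Counting error was at most 7.20% of any member's count, for Nupl2 with 193 reads in replicate 1.

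Some differences rest on the RPKM length. The ratio of reads to RPKM between replicates shows whether the same length was used in both, and for 14 of 32 members the length behind RPKM differed by more than 5%. For Nup205 the length in replicate 2 was 0.502 times that in replicate 1, its log2 ratio was 0.81 on RPKM, and on CPM it was -0.35. The joined Nup62 locus changed sign in the same way, with a length ratio of 0.606 and log2 ratios of 0.58 and -0.31. Nup88, with a length ratio of 0.813, had log2 ratios of 0.36 on RPKM and -0.11 on CPM. Its change of sign cannot be given to length alone, since the 2 scales also differ in library size. Between replicates, reads per RPKM had a ratio of 5.68 and the summed counts a ratio of 6.42. Nup50, with a length ratio of 0.998, likewise had log2 ratios of 0.17 on RPKM and -0.0053 on CPM. For Pom121 the length ratio was 1.00 and for Nup210 1.10.

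**Figure D3:**
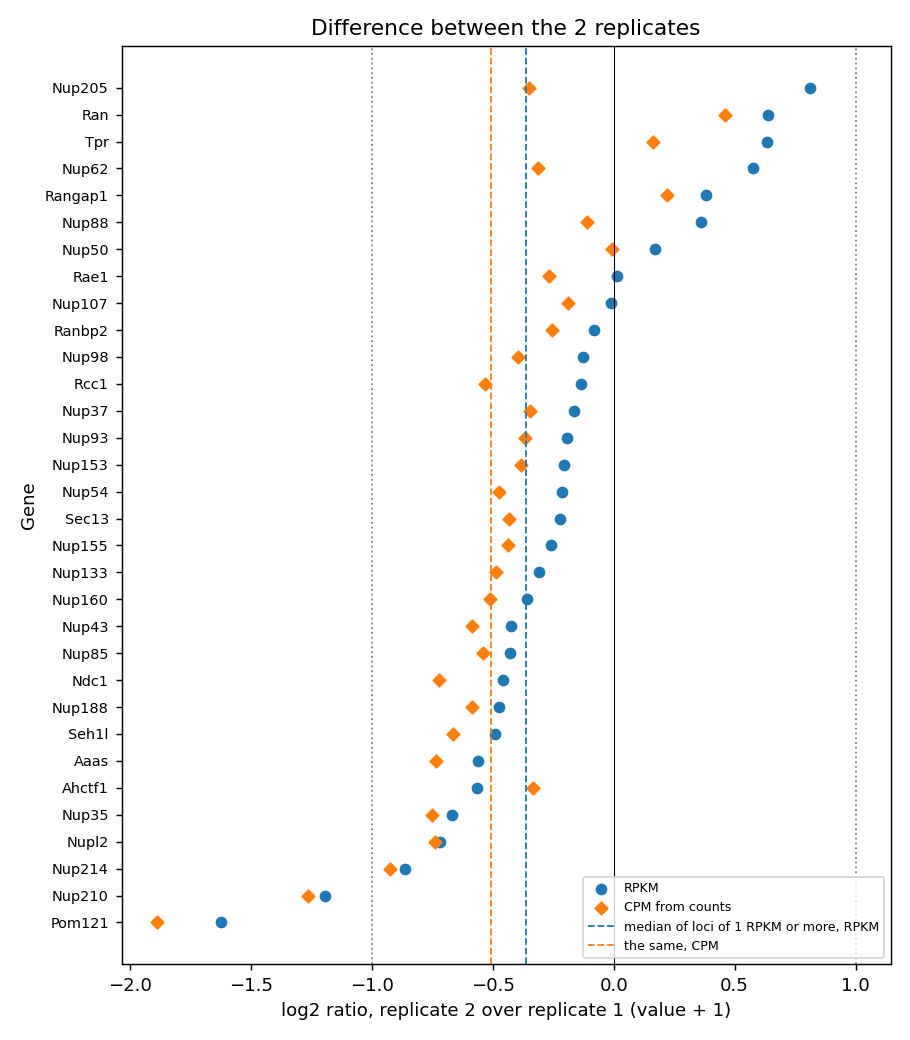
Log2 ratio of replicate 2 over replicate 1 (value + 1) for each member on RPKM (blue circles) and on CPM from the counts (orange diamonds); dashed lines are the medians of loci of 1 RPKM or more, dotted lines mark 2-fold. Pom121 and Nup210 lie past 2-fold on both scales, and Nup205 and Nup62 lie right of 0 on RPKM but left of 0 on CPM.

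Transport receptors carry cargo through the pore. All 18 importin loci, 4 of them joined, reached 10 RPKM in both replicates, where 29% of all loci and 42.2% of protein-coding loci did. A joined value, such as that of Kpna7 with Arpc1a (77.1 and 56.1 RPKM), cannot be given to the importin. The median of the 18 loci was 80.6 RPKM in replicate 1 and 67.5 RPKM in replicate 2. Kpnb1, importin beta, the main carrier, was highest at 532 and 1012 RPKM, followed by Ipo7 at 156 and 165 RPKM and Tnpo3, which imports splicing factors, at 158 and 147 RPKM. Ipo13 was lowest at 15.2 and 11.4 RPKM. All 7 exportin loci also reached that level, and their median was 100.02 and 55.2 RPKM. Xpo1, the main protein exporter, had 339 and 631 RPKM, Cse1l, which returns importin alpha to the cytoplasm, 163 and 184 RPKM, and Xpo4, joined with Lats2, 112 and 89.1 RPKM. The tRNA exporter Xpot was lowest at 31.0 and 25.9 RPKM. Kpnb1 and Xpo1 were thus higher than every pore gene with a locus of its own in both replicates, on RPKM.

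Among the Ran cofactors, Ranbp1, which helps Ran hydrolyse GTP, had 401 and 841 RPKM in a locus joined with Trmt2a, Ranbp3 had 43.4 and 35.2 RPKM, the Ran importer Nutf2 17.6 in both replicates, and Rangrf 16.9 and 9.53 RPKM. All 7 mRNA export loci, 2 of them joined, reached 10 RPKM in both. Alyref, an adaptor for export, was highest at 407 and 474 RPKM, then Eny2 (95.7 and 119.8 RPKM, joined with Nudcd1) and the export receptor Nxf1 (73.1 and 53.9 RPKM), and the helicase gene Ddx19b was lowest at 18.2 and 14.9 RPKM. Of 5 further pore genes, Gle1 had 123 and 109 RPKM and Nupl1, which encodes the channel protein Nup58, 57.8 and 57.5 RPKM in a locus joined with Mir719. Tmem33 had 28.4 and 21.3 RPKM. The paralogues of the 2 lowest anchors were lower still: Nup210l had 4.24 and 3.03 RPKM, and Pom121l2 had 0.0986 and 0.130 RPKM from 5 and 27 reads.

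Nuclear lamina and envelope genes had a median of 68.9 RPKM in replicate 1 and 38.4 RPKM in replicate 2 over 11 loci. Tmpo, joined, had 598 and 805 RPKM, and Lmnb1, a B-type lamin, 293 and 435 RPKM. Syne2, which links the nucleus to the cytoskeleton, had 177 and 141 RPKM in a locus joined with Mir5101. Syne1, matched by transcript identifiers, was lowest at 8.61 and 6.42 RPKM. On RPKM, pore genes stood between 2 other large complexes that most cells use. The 32 members had a median of 69.9 and 62.0 RPKM, against 128 and 226 RPKM for 31 proteasome subunits and 41.9 and 33.1 RPKM for 30 Mediator subunits. Psmd2 (591 and 721 RPKM), Psmc3 (288 and 472 RPKM, joined) and Psma6 (210 and 526 RPKM) led the proteasome list, and Psma5 (24.1 and 24.0 RPKM, joined) was lowest. Med21 (209 and 297 RPKM, joined), Med6 (181 and 172 RPKM) and Med13 (195 and 154 RPKM, joined) led the Mediator list, and Med26 (8.71 and 4.51 RPKM) was lowest. By CPM the members (105.0, mean of the replicate medians) lay close to the proteasome subunits (110) and above the Mediator subunits (40.5). These medians were not tested against each other.

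**Figure D4:**
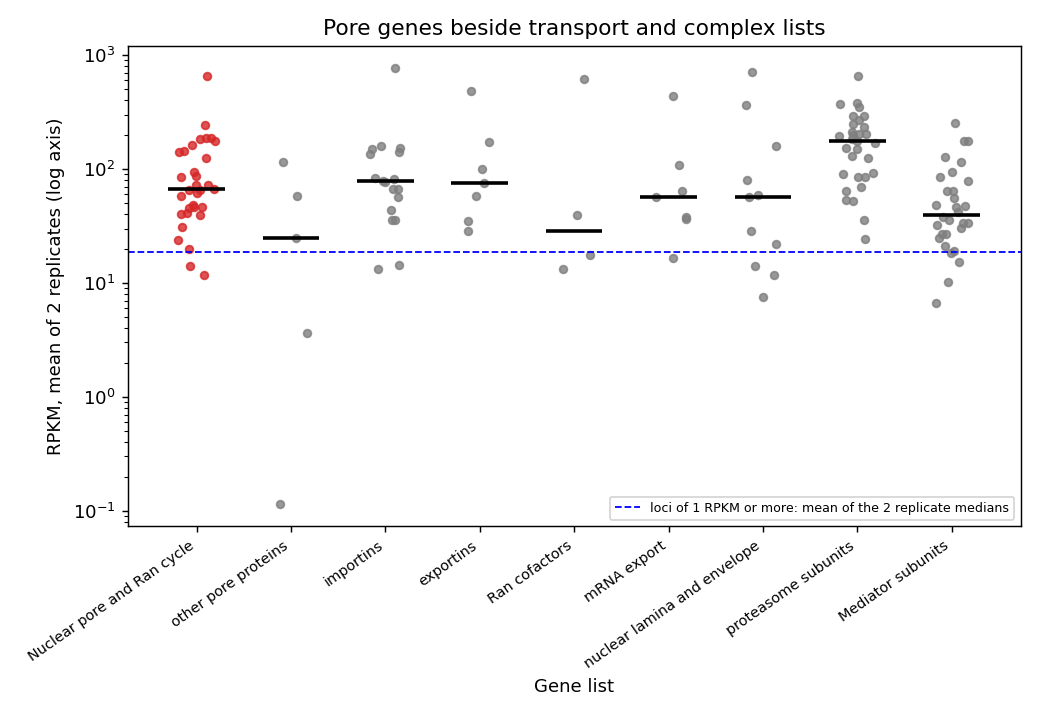
Mean RPKM of each locus (vertical log axis) by gene list, red for the nuclear pore and Ran cycle genes and grey for the others; black bars are list medians of these means and the dashed line is the mean of the 2 replicate medians of loci of 1 RPKM or more. The pore genes spread between 11.7 and 648 RPKM, the proteasome bar lies above theirs and the Mediator bar below.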

How the data were processed

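Total RNA of whole embryos was sequenced in 2 libraries, with TopHat and build mm9 named without a version, per the submitters' processing notes. No source used here gives the read counter, strand or filters. The authors deposited RPKM values and whole-number counts per row, per the file headers. Rows with the same gene identifiers were summed (34676 rows, 34624 loci), and 32642 of 37681 identifiers (86.6%) had a symbol. RPKM was the main unit, and ratios were taken of log2(RPKM + 1), so differences of low genes come out too small. Reads per RPKM had 1 ratio between replicates (5.68, within 1%) in 100% of single-transcript but 23.2% of multi-transcript loci with over 200 reads, so lengths differed by library.

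The members and lists were chosen with earlier results of these data known. Named were all 32 members and, of each other list, the 3 highest and the lowest genes. No test was run, as there is 1 group. Spread was taken in 10 level groups, and the code was tested on simulated data. Alternatives were the minimum, unit, joined loci, rows, pseudocount, scaling, length and each replicate left out. Protein sequences were not used here. Python 3.11.15, numpy 2.4.6 and pandas 2.3.3 were used.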

Additional observations from a re-analysis of the deposited data

How the results depend on the processing

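No paired analysis was possible because there is 1 group. The counts of members at 1 RPKM and at 10 RPKM stayed within 1.5 times under every alternative run, namely another minimum, CPM, single-gene loci, the highest row and each replicate left out. The median log2 ratio of members turned to 0.24 with the replicates rescaled to the same median. That multiplied replicate 2 by 1.38, the ratio of the 2 medians of loci of 1 RPKM or more. It is a larger shift than the median log2 ratio of those loci, -0.36. Pairs called apart numbered 257 of 496 with joined loci included, which adds pairs.

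With CPM, which holds no length, list medians (mean of both replicates) were 105.0 for all members, 104.1 for the Y complex, 142 for the inner ring, 119.7 for the central channel, 34.7 for the membrane anchors, 86.4 for the cytoplasmic face, 291 for the nuclear basket and 115 for the Ran cycle. They were 18.7 for other pore proteins, 106 for importins, 152 for exportins and 85.3 for mRNA export. Proteasome subunits stood at 110 and Mediator subunits at 40.5. The inner ring thus stood above the Y complex on CPM, the opposite of RPKM. With single-gene loci alone, medians were 117 RPKM for the cytoplasmic face, 113 RPKM for the basket, 14.2 RPKM for other pore proteins and 17.6 RPKM for Ran cofactors, from fewer genes. The planned scale by RefSeq protein length was not run, and GENCODE coding length, chosen after seeing the data as was the inclusion of joined loci, took its place.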
